A study of Mus musculus with 112 samples.

Results

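Cyp2b9, Acot3, Fabp3, Ly6d and Pdk4 are the genes of 5 probes, of 45281 on the array, that were far brighter in mouse liver after treatment with agonists of the peroxisome proliferator-activated receptors (PPARs). They were picked with the values known, for their large differences from saline in the liver of fenofibrate- or tesaglitazar-treated mice, so every liver difference below is a description and carries no test. Each gene has 1 probe on the array, except Ly6d, which has 2. The arrays of prefrontal cortex and amygdala played no part in the choice, and the members were tested there.

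PPARs are nuclear receptors that bind fatty acids and fibrate or glitazone drugs and, paired with a retinoid X receptor, switch on genes of fatty acid uptake, storage and oxidation. PPARα is the main form in hepatocytes, where it drives the response to fasting, and PPARγ is the form that governs fat cells. The members have different roles in this biology. Cyp2b9 is a cytochrome P450 of the endoplasmic reticulum that oxidises steroids and foreign compounds, and in mice it is known as a gene of female liver. Acot3 is an acyl-CoA thioesterase of peroxisomes, which splits long-chain acyl-CoA into free fatty acid and coenzyme A. Fabp3 is the fatty acid binding protein of heart and skeletal muscle, a carrier that is also made in brain. Pdk4 is a kinase that shuts off the pyruvate dehydrogenase complex, and so spares glucose when fatty acids are burned. Ly6d is a small surface protein tethered to the membrane by a lipid anchor, best known as a marker of early B cells and keratinocytes.

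The study gave male C57BL/6J mice saline or 1 of 3 PPAR agonists by mouth for 8 days and measured RNA of liver, prefrontal cortex and amygdala on Illumina bead arrays. Fenofibrate, labelled a PPARα agonist, was given at 150 mg/kg, bezafibrate, labelled an agonist of all PPARs, at 75 mg/kg, and tesaglitazar, an agonist of PPARα and PPARγ, at 1.5 mg/kg. The drugs were suspended in saline with Tween-80, and whether the saline mice received Tween-80 is not given in the labels, nor is the age of the mice. The 12 groups held 9 or 10 arrays as labelled, 112 in all. Because dose differed between the agonists, their values stand side by side and no test between drugs was made. The labels name no transgene or engineered allele, call the dosing both oral and injected, and number the mice, and each array was taken as 1 mouse.

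The regions just before the annotated starts of Cyp2b9, Acot3, Fabp3 and Pdk4 are shown because these genes were high together in treated liver, and PPARs are known to bind repeats of the hexamer AGGTCA. The sequences are those of RefSeq for build GRCm38.p6, read 5′ to 3′ on the strand of the gene and ending at the base before the gene. Capitals mark exact matches to AGGTCA or its reverse complement. They span chr7:26173159-26173349 on the plus strand for Cyp2b9, chr12:84051894-84052143 on the plus strand for Acot3, chr4:130308488-130308737 on the plus strand for Fabp3 and chr6:5496279-5496528 on the minus strand for Pdk4.
Cyp2b9: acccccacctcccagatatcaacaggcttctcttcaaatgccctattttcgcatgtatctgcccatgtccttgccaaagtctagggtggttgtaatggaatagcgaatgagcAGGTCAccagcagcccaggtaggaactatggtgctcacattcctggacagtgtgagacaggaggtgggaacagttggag
Acot3: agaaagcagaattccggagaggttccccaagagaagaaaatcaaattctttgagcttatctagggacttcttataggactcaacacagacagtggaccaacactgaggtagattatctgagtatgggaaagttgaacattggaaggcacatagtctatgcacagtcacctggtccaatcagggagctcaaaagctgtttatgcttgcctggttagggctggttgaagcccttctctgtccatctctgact
Fabp3: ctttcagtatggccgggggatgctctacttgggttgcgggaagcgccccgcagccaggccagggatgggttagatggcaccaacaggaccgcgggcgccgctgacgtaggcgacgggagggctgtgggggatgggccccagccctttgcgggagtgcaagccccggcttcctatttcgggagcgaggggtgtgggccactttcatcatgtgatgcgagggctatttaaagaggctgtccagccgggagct
Pdk4: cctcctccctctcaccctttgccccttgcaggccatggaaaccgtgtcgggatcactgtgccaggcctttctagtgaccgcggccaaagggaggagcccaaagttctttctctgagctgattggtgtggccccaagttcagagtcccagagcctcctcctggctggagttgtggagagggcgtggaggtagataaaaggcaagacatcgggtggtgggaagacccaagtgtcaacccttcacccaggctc
The Cyp2b9 window, which is shorter, held 1 AGGTCA on the strand of the gene, which began 79 bases before the gene. Of 27025 RefSeq windows cut to the same length, 10.7% held the hexamer on either strand. The windows of Acot3, Fabp3 and Pdk4, of 250 bases each, held none, against 13.8% of windows of that length. The repeat AGGTCANAGGTCA, in which every match also counts as matches to the hexamer, was in no member's window and in 0.0370% of windows of 250 bases. A match is only a match of letters, and these windows are a small part of the DNA near each gene.

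The files place the probes in coding genes that RefSeq annotates at chr7:26173350-26210661 (Cyp2b9, probe ILMN_2617625), chr12:84052144-84060400 (Acot3, ILMN_2644827), chr4:130308738-130315463 (Fabp3, ILMN_2887630), chr15:74762056-74763567 (Ly6d, ILMN_2803920) and chr6:5483351-5496278 (Pdk4, ILMN_1259322). Cyp2b9 and Acot3 belong to families of similar genes, and whether their probes also catch RNA of a relative was not tested. The share of probes above background, a detection p under 0.05, was 38.1 to 42.7% per liver array, and in the brain it was 44.0 to 49.8% for prefrontal cortex and 46.4 to 50.6% for amygdala. Apoa1 and Apoa2, lipoprotein genes of hepatocytes, lay at a log2 level of 14.20 or more on all 35 liver arrays used, and Syt1 and Rbfox3, genes of neurons, at 11.81 or more on all arrays of both brain regions. Several of these markers were not confined to their tissue. Syt1 and Rbfox3 were above background on 35 and 33 of 35 liver arrays too, at up to 9.01 and 6.28, Slc1a2, an astrocyte gene, lay at 7.62 to 10.35 in liver, and Ttr, a gene of liver and choroid plexus, reached 14.70 in both brain regions. Alb, the albumin gene of hepatocytes, lay at 5.51 to 8.50 in liver. Fgb, a fibrinogen gene of hepatocytes, was above background on 19 of 35 liver arrays, and Mbp and Gfap, genes of oligodendrocytes and astrocytes, on none. The probe of the neuronal gene Snap25 was above background on no array of any tissue.

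The liver library labelled saline 4 had the members at tesaglitazar levels, and the one labelled tesaglitazar 6 had them at saline levels. The former read 3131 intensity units for Cyp2b9, 6905 for Acot3, 4287 for Fabp3, 1608 for Ly6d and 4428 for Pdk4, and the latter 90.4, 191.5, 83.2, 92.5 and 138. Both were left out of the liver values by the rule that chose the members, which left 9 saline, 9 fenofibrate, 8 tesaglitazar and 9 bezafibrate arrays, and differences with both kept as labelled are given beside the others.

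Cyp2b9 was at or near background in saline liver and far higher under both fenofibrate and tesaglitazar. Its intensity ran from 80.9 to 101.1 units in saline with a median of 85.7, from 640 to 4002 under fenofibrate with a median of 1360, from 557 to 5439 under tesaglitazar with a median of 2971, and from 84.3 to 396.0 under bezafibrate with a median of 89.8. All fenofibrate and tesaglitazar arrays lay above all saline arrays, while bezafibrate overlapped saline. It was above background on 2 of 9 saline arrays and on 4 of 9 bezafibrate arrays, and on all arrays of the other 2 drugs. After background correction and normalization, the log2 level was 4.39 ± 0.23 in saline (SD, n = 9), 10.55 ± 1.01 under fenofibrate (n = 9), 11.18 ± 1.06 under tesaglitazar (n = 8) and 5.39 ± 1.50 under bezafibrate (n = 9). The log2 difference from saline was 6.17 ± 0.46 (SE) for fenofibrate, 6.79 ± 0.47 for tesaglitazar and 1.0 ± 0.46 for bezafibrate. With both doubtful libraries kept, these were 5.46, 5.33 and 0.30. Under bezafibrate the mice were split, with 4 arrays between 5.82 and 8.39 and the other 5 between 4.19 and 4.35.

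Acot3 was above background in every saline liver, and its mean was higher under each of the 3 drugs. Its intensity ran from 116 to 332 units in saline with a median of 199.9, from 3018 to 6749 under fenofibrate with a median of 5292, from 4681 to 8175 under tesaglitazar with a median of 6783, and from 218.8 to 1285 under bezafibrate with a median of 586. The first 2 drugs left no overlap with saline, and bezafibrate overlapped it at its low end. The log2 level was 7.0 ± 0.60 in saline and 8.86 ± 0.95 under bezafibrate, against 12.07 ± 0.35 under fenofibrate and 12.60 ± 0.29 under tesaglitazar. The differences were 5.07 ± 0.27 or 33.5-fold for fenofibrate, 5.60 ± 0.27 or 48.4-fold for tesaglitazar and 1.86 ± 0.27 or 3.64-fold for bezafibrate. Kept as labelled, the libraries gave 4.50, 4.40 and 1.30.

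Fabp3 went from below the detection threshold to a clear signal. Its intensity was 79.3 to 94.6 units in saline with a median of 84.0, and 80.6 to 90.9 under bezafibrate with a median of 84.5, and it was above background on none of these 18 arrays. Under fenofibrate it ran from 189.2 to 1180 with a median of 212.5, and under tesaglitazar from 897 to 6195 with a median of 4769. It was above background on every array of both drugs, and all of these lay above all saline arrays. The log2 level was 4.25 ± 0.03 in saline and 4.21 ± 0.07 under bezafibrate, against 7.77 ± 1.04 under fenofibrate and 11.66 ± 0.93 under tesaglitazar. Because saline gave only a bound, Fabp3 was at least 9.42-fold higher under fenofibrate and at least 139.5-fold higher under tesaglitazar. For this bound the saline level was set to the dimmest signal that still counted as detected on each saline array, or to Fabp3 itself where that was brighter, on the log2 scale. Fenofibrate minus tesaglitazar was -3.89 on the log2 scale, and 1 fenofibrate array, from mouse 37, lay inside the tesaglitazar range. With the doubtful libraries kept, the log2 difference from saline was 2.76 for fenofibrate and 5.81 for tesaglitazar, against 3.52 and 7.41 without them, and for bezafibrate it was -0.80 against -0.04.

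Pdk4 was measured in every liver and differed widely between the drugs. Its intensity ran from 105.4 to 176.8 units in saline with a median of 128.7, from 203.4 to 533 under fenofibrate with a median of 259.8, from 1023 to 6501 under tesaglitazar with a median of 5279, and from 95.4 to 132.3 under bezafibrate with a median of 116.7. Fenofibrate arrays were all above saline and all below tesaglitazar, and bezafibrate overlapped saline. The log2 level was 5.93 ± 0.40 in saline and 5.50 ± 0.39 under bezafibrate, against 7.72 ± 0.70 under fenofibrate and 11.70 ± 1.14 under tesaglitazar. The difference from saline was 1.78 ± 0.31 or 3.44-fold for fenofibrate and 5.77 ± 0.31 or 54.5-fold for tesaglitazar, and for bezafibrate it was -0.43 with a 95% interval of -1.05 to 0.19. Fenofibrate minus tesaglitazar was -3.98 on the log2 scale. Kept as labelled, the libraries gave 1.18, 4.54 and -1.04 for fenofibrate, tesaglitazar and bezafibrate.

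Ly6d was at or near background in saline and bezafibrate liver and clearly measured under the other 2 drugs. Its intensity was 85.1 to 104 units in saline with a median of 90.1 and 88.7 to 100.5 under bezafibrate with a median of 94.6. It ran from 221.4 to 884 under fenofibrate with a median of 457, and from 929 to 2164 under tesaglitazar with a median of 1472. The saline, fenofibrate and tesaglitazar ranges did not overlap one another. The log2 level was 4.49 ± 0.11 in saline, where 3 of 9 arrays were above background, 8.48 ± 0.66 under fenofibrate, 10.38 ± 0.39 under tesaglitazar and 4.59 ± 0.18 under bezafibrate, where 5 of 9 were. The differences from saline were 3.99 ± 0.18 for fenofibrate, 5.89 ± 0.18 for tesaglitazar and, for bezafibrate, 0.10 with a 95% interval of -0.26 to 0.45. Kept as labelled, the libraries gave 3.40, 4.64 and -0.50. The second Ly6d probe on the array gave log2 levels of 4.43 ± 0.15 in saline and 4.54 ± 0.22 under bezafibrate, against 7.96 ± 0.68 under fenofibrate and 9.85 ± 0.41 under tesaglitazar.

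**Figure D1:**
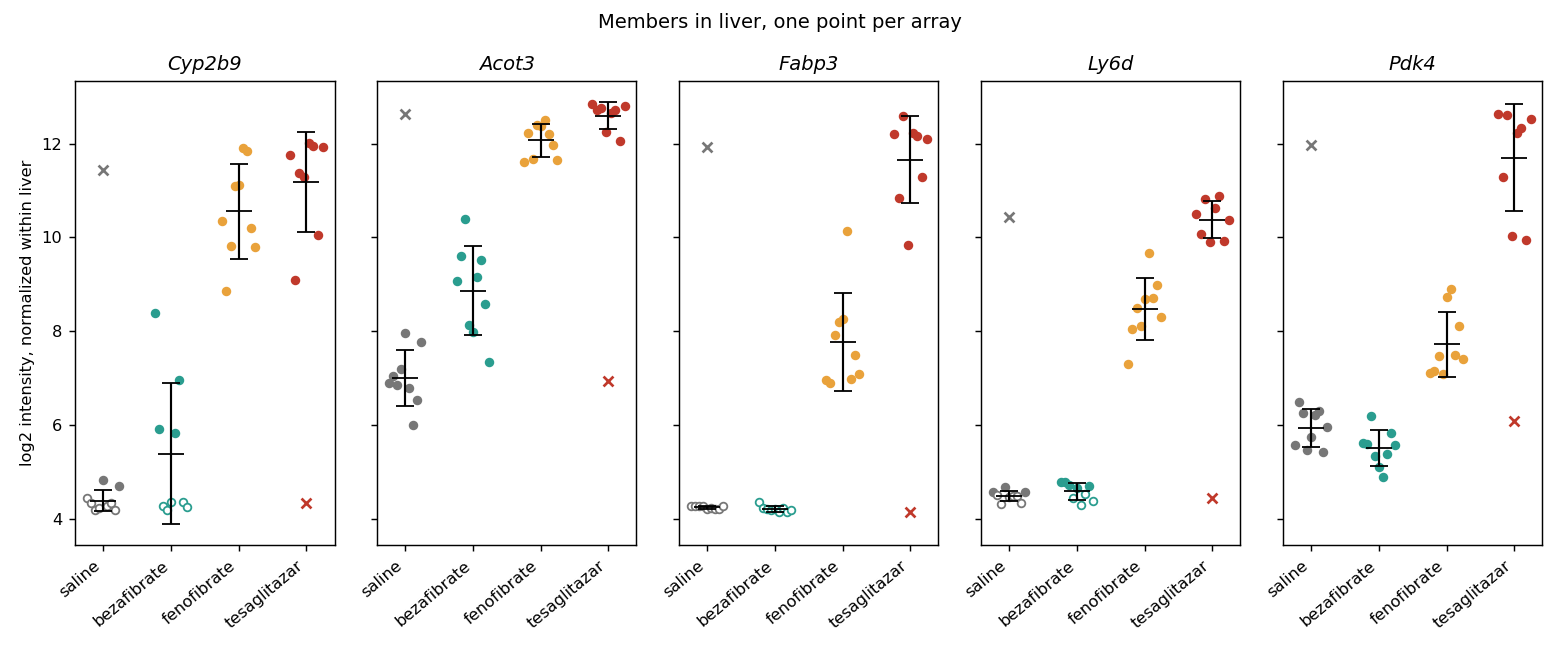
Log2 intensity of the 5 members in liver, normalized within liver (vertical axis), by treatment (horizontal axis). Each circle is an array, filled where above background and open where not, bars are mean ± SD without the 2 libraries drawn as crosses, and all fenofibrate and tesaglitazar circles lie above all saline circles in each panel.

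Under fenofibrate and under tesaglitazar, 5 of 5 members had no overlap with saline, and under bezafibrate 0 of 5. The share of all liver probes with no overlap was not computed, and the shares that follow are of limma calls, a different measure. At an adjusted p under 0.05 in limma, 14.7% of the 19773 liver probes tested were higher and 15.4% lower under fenofibrate. Under tesaglitazar 22.5% were higher and 23.8% lower, and under bezafibrate 1.54% and 1.67%. The members were chosen on these contrasts, so nothing is read from their counts. The 3 contrasts share the saline arrays. In mice numbered 1 to 20 and in those numbered 21 to 40, which the labels do not call batches, the fenofibrate and tesaglitazar differences were above 0 for all members. For fenofibrate these sets gave 5.95 and 6.47 for Cyp2b9, 5.06 and 5.07 for Acot3, 3.37 and 3.70 for Fabp3, 3.62 and 4.45 for Ly6d, and 1.57 and 2.05 for Pdk4. For tesaglitazar they gave 6.58 and 7.03, 5.65 and 5.55, 7.10 and 7.72, 5.80 and 5.98, and 5.70 and 5.83 in the same order. Between these drugs, which were given at different doses, Cyp2b9 and Acot3 overlapped, with fenofibrate minus tesaglitazar at -0.63 and -0.53. For Ly6d it was -1.90.

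**Figure D2:**
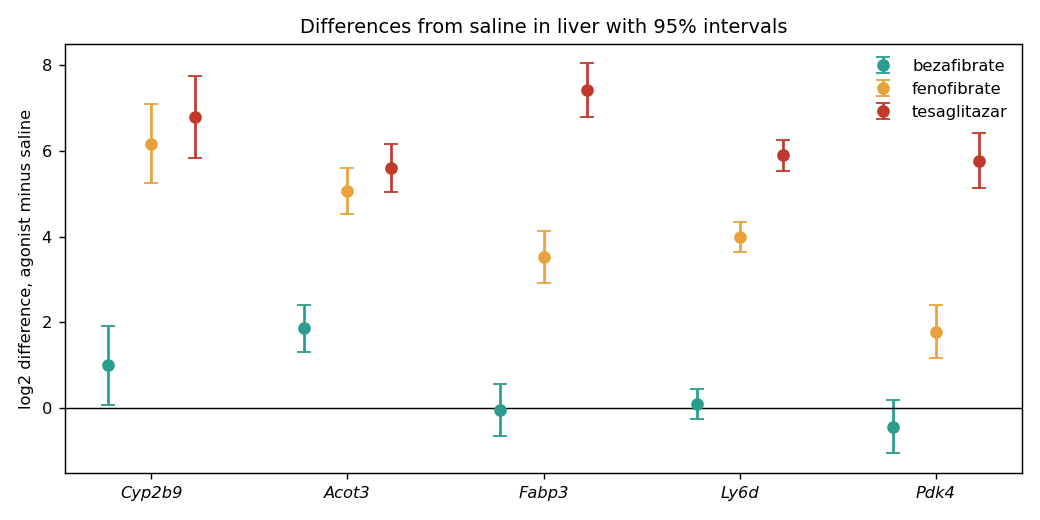
Log2 difference of each agonist from saline in liver (vertical axis) for the 5 members (horizontal axis), with 95% intervals from the limma fit. The intervals describe the fit and are not tests. The fenofibrate and tesaglitazar points stand closer for Cyp2b9 and Acot3 than for Pdk4, which has them at 1.78 and 5.77.

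In RNA of a whole tissue, more cells of a type and more RNA per cell cannot be told apart. Markers of fat cells were at or near background beside these differences. Of 6 adipocyte genes listed, 5 were on the array and none passed the detection filter in liver. Plin1 and Retn were above background on no liver array, Adipoq on 1 saline and 1 fenofibrate array, Lep on 2 arrays of each group and Fabp4 on 3 of 8 tesaglitazar arrays, and the summed log2 level of the list was 6.81 to 6.94 in saline, 6.80 to 6.94 under fenofibrate and 6.86 to 7.06 under tesaglitazar. The summed log2 level of 6 hepatocyte genes was 16.76 to 16.90 in saline, 16.68 to 16.77 under fenofibrate and 16.66 to 16.76 under tesaglitazar, and 3 of the 6 were lower at an adjusted p under 0.05 in limma under each drug. Kupffer cell genes, those of liver macrophages, passed as lower for 2 of 2 tested, of 3 on the array, under both drugs, with summed log2 levels of 10.01 to 10.76 in saline, 9.28 to 10.67 under fenofibrate and 9.50 to 10.19 under tesaglitazar. Of 3 stellate cell genes, 1, Reln, was lower under each of these drugs, and the list summed to 10.43 to 10.93 in saline, 9.99 to 10.54 under fenofibrate and 9.92 to 10.48 under tesaglitazar. Of 2 tested endothelial genes 0 passed in limma under either drug, with 0 at an unadjusted p under 0.05. The part of these shifts in the members' values was not tested.

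Liver arrays of the same drug group differed in the members' levels, and the members tended to be high or low on the same arrays. In the fenofibrate group mouse 37 was the highest for Cyp2b9, Acot3, Fabp3, Ly6d and Pdk4, at log2 levels of 11.91, 12.51, 10.13, 9.67 and 8.89. In the tesaglitazar group mice 10 and 29 were the lowest for Pdk4, at 10.04 and 9.96, against 11.29 to 12.63 in the other 6, mouse 10 was also lowest for Fabp3, at 9.84, and mouse 8 for Cyp2b9, at 9.09. Mice 10, 29 and 8 had 39.98%, 40.4% and 40.7% of probes above background, against 40.2 to 42.7% in the other 5. The part of this in the values was not tested.

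Pairs of members were correlated within each drug group, over the same liver arrays from which the members were chosen. The choice used differences between groups, and whether it also favoured joint spread within a group was not tested. All 10 pairs had r above 0 in the fenofibrate group, from 0.49 to 0.82 over 9 arrays, and all 10 in the tesaglitazar group, from 0.38 to 0.93 over 8 arrays. By exact permutation tests, two-sided, with Benjamini-Hochberg adjustment over the 20 pairs, 1 pair passed under fenofibrate and 4 under tesaglitazar. The share of other probe pairs that would pass on the same arrays was not computed. Whether this joint spread is particular to the members was therefore not tested. Ly6d and Pdk4 gave r = 0.82 under fenofibrate (exact p = 0.00245, adjusted 0.0270) and Spearman's rho of 0.90 (exact p = 0.00203, adjusted 0.0203). Acot3 and Pdk4 gave r = 0.93 under tesaglitazar (exact p = 0.00489, adjusted 0.0270) and rho of 0.95 (exact p = 0.00114, adjusted 0.0203). The other 3 pairs, among Fabp3, Ly6d and Pdk4 under tesaglitazar, had r of 0.85 for Fabp3 with Ly6d, 0.86 for Fabp3 with Pdk4 and 0.86 for Ly6d with Pdk4 (exact p = 0.00362, 0.00915 and 0.00541, adjusted 0.0270, 0.0366 and 0.0270). By rho, which was 0.83, 0.71 and 0.67, none of the 3 passed (exact p = 0.0154, 0.0576 and 0.0831, adjusted 0.103, 0.204 and 0.204). Without the 2 arrays farthest from the median of the first member, no pair passed in either group, and the 5 pairs had r of 0.74, 0.52, 0.88, 0.93 and 0.67 in the order given. With the 7 and 6 arrays left, r was higher than before for Fabp3 with Ly6d and with Pdk4, and lower for the other 3 pairs. Mice 1 to 20 and mice 21 to 40 each held too few arrays of a drug group for a value of their own.

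**Figure D3:**
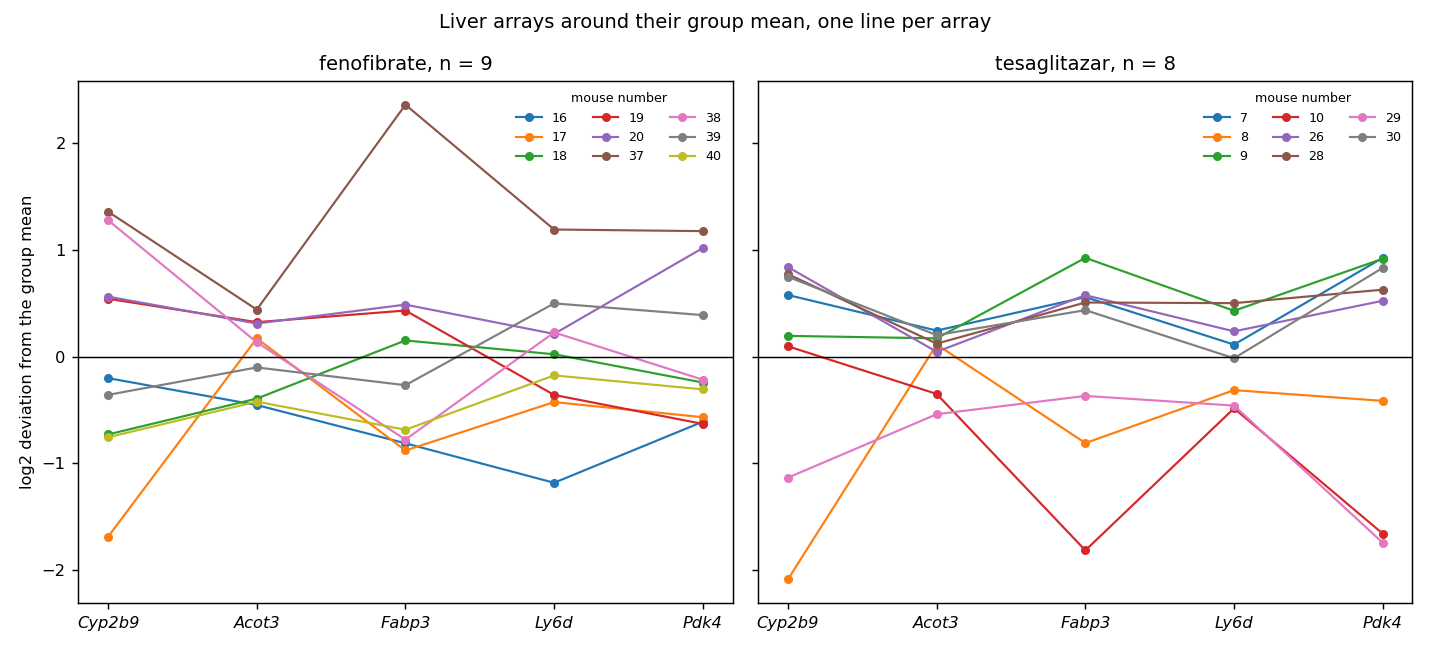
Deviation of each liver array from its group mean on the log2 scale (vertical axis) for the 5 members (horizontal axis), one line per array, for fenofibrate (n = 9) and tesaglitazar (n = 8). Mouse 37 lies above 0 throughout in the left panel, and mice 10 and 29 fall well below 0 for Pdk4 in the right panel.

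The probes whose liver levels most resembled each member were found by Pearson's r over the 35 arrays of all treatments, as a description with no test, since r over groups that far apart mostly restates the drug response. Cyp2b9 was most like ILMN_1251714, a probe with no gene named in the sources used here (r = 0.98), Cyp2b23, another P450 of its subfamily (0.98), and Slc27a1, a fatty acid transporter (0.96). Within groups, as deviations from the group mean, these r were 0.87, 0.91 and 0.41. Acot3 was most like 2 probes of Acot1, its cytosolic relative (0.98 and 0.97), and Ech1, an isomerase of fatty acid oxidation (0.98). Fabp3 was most like Aqp7, a glycerol channel (0.99), Sdcbp2 (0.98) and P2ry14, a receptor for UDP-sugars (0.98). Ly6d was most like Acot2, the mitochondrial thioesterase (0.99), Amn (0.99) and a second probe of Aqp7 (0.99), and Pdk4 was most like Aqp3, also a glycerol channel (0.98), and 2 probes of P2ry14 (0.98 each). Many probes were nearly as close, with r over 0.9 for 421 probes with Ly6d, 376 with Fabp3 and 261 with Pdk4, and for fewer with Acot3 and Cyp2b9. Among the members, r was 0.94 for Cyp2b9 with Acot3, 0.97 for Fabp3 with Ly6d and with Pdk4, and 0.77 for Acot3 with Pdk4.

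Other known PPAR target genes rose beside the members, from lists that hold no member. Of 15 tested genes of fatty acid oxidation and acyl-CoA handling, 12 rose under fenofibrate and 0 fell, 14 rose and 1 fell under tesaglitazar, and 5 rose and 0 fell under bezafibrate, all at an adjusted p under 0.05 in limma, with median log2 differences of 1.13, 1.48 and 0.26, against -0.01, -0.01 and 0.00 over all liver probes tested. Ehhadh, the bifunctional enzyme of peroxisomal oxidation, went from a log2 level of 8.97 ± 0.59 in saline to 13.37 ± 0.26 under fenofibrate (adjusted p = 5.27e-18, limma), 13.66 ± 0.29 under tesaglitazar (5.91e-19) and 11.33 ± 0.76 under bezafibrate (6.34e-09). Acot1, close to Acot3 in pattern, rose by 3.69 ± 0.14, 4.15 ± 0.14 and 1.16 ± 0.14 under the 3 drugs. Cpt1b, the muscle form of the enzyme that admits fatty acids to mitochondria, rose by 3.63 ± 0.18 and 4.79 ± 0.19 under fenofibrate and tesaglitazar, and gave 0.35 ± 0.18 under bezafibrate (adjusted p = 0.364, limma). Cpt1a, the liver form, was the gene that fell under tesaglitazar, by 0.22, at a level above background on 5 of 9 saline arrays and 0 of 8 tesaglitazar arrays.

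All 4 tested genes of omega-hydroxylation, the P450 step at the far end of fatty acids, rose under each of the 3 drugs, with median log2 differences of 2.29, 2.13 and 1.49 for fenofibrate, tesaglitazar and bezafibrate. Cyp4a14 rose by 2.85 ± 0.17 under each of the first 2 and by 2.25 ± 0.17 under bezafibrate (adjusted p = 9.06e-12, limma). Of 19 tested genes of lipid transport, storage and signalling, 15 rose and 0 fell under fenofibrate, 17 rose and 2 fell under tesaglitazar, and 2 rose and 0 fell under bezafibrate, with medians of 1.31, 2.49 and 0.12. Cidea, a lipid droplet protein known from brown fat, was above background on 0 of 9 saline, 9 of 9 fenofibrate and 8 of 8 tesaglitazar arrays, with log2 levels of 4.31 ± 0.08, 7.65 ± 0.87 and 10.46 ± 1.27. A gene absent from saline liver, such as Cidea, passed the detection filter only through drug arrays, so its rise was fixed in advance. How many genes of these lists were of this kind was not counted, and the counts and medians given for the lists include them. Lpl, the lipase that frees fatty acids from lipoproteins, rose by 2.61 ± 0.19 and 3.72 ± 0.19. Fgf21, a fasting hormone of liver, rose by 3.21 ± 0.39 under tesaglitazar (adjusted p = 9.36e-09, limma) and gave 0.83 ± 0.38 under fenofibrate (adjusted p = 0.0996). The 2 genes that fell under tesaglitazar were Cideb and Ppargc1a.

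Of the 6 receptor genes, Rxrb rose and Pparg fell under both fenofibrate and tesaglitazar, and 0 passed under bezafibrate, where 0 of 6 had an unadjusted p under 0.05 in limma. Pparg fell by 0.40 under fenofibrate (adjusted p = 0.0277, limma) and by 1.03 ± 0.14 under tesaglitazar (1.86e-07), and Rxrb rose by 0.29 (0.0145) and 0.47 (6.63e-05). Ppara itself gave 0.32 ± 0.20 under fenofibrate (0.235). Probes of the same gene differed in call for 1 receptor gene under fenofibrate and 0 under tesaglitazar. This held for 2 oxidation genes under fenofibrate, 1 under tesaglitazar and 1 under bezafibrate. It also held for 1 lipid transport gene under each of fenofibrate and tesaglitazar. In these lists 0 genes had probes called in opposite directions. No gene of these lists that passed the test had the opposite sign with median centring, without background correction, or with both doubtful libraries kept. These lists were drawn up with earlier results of these arrays known, so their direction is not independent evidence.

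In brain the members split by whether they were detected there at all. Cyp2b9 and Ly6d were above background on 0 of 38 arrays of prefrontal cortex and 0 of 37 of amygdala. Fabp3 was strong in both regions under every treatment, with group means between 10.50 and 10.63 on the log2 scale within each region. Acot3 and Pdk4 were low but above background on all brain arrays, with group means of 5.18 to 5.68 and 6.24 to 6.58. None of these 3 passed the test as higher in either brain region under any drug.

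**Figure D4:**
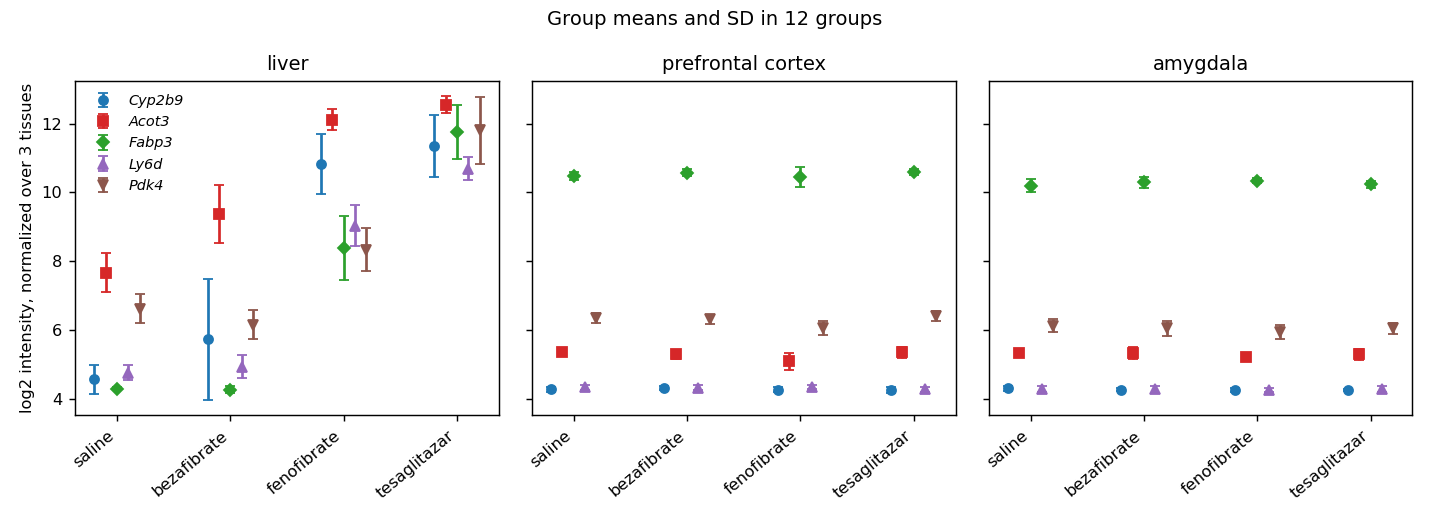
Group mean ± SD of log2 intensity, normalized over the 3 tissues together (vertical axis), by treatment (horizontal axis) in liver, prefrontal cortex and amygdala, with a marker per member. Fabp3 is near 10.2 to 10.6 in all brain groups and at background in saline and bezafibrate liver, and the drug response is seen in the liver panel.

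With all arrays normalized together, the 12 groups can be put in order for each member. Cyp2b9 was highest in tesaglitazar liver, at 11.36 ± 0.90, then fenofibrate liver, at 10.83 ± 0.86, a gap smaller than the larger SD, and its other neighbours in the order did not differ by more than their SD either, apart from the step down to bezafibrate liver at 5.72 ± 1.76. Acot3 went from 12.56 ± 0.24 through 12.11 ± 0.30, 9.37 ± 0.84 and 7.67 ± 0.57 in tesaglitazar, fenofibrate, bezafibrate and saline liver, each step larger than the larger SD of its 2 groups, and then to the 8 brain groups between 5.08 and 5.36. Fabp3 put tesaglitazar liver, at 11.76 ± 0.79, above all 8 brain groups, which lay between 10.20 and 10.59, and fenofibrate liver below them at 8.37 ± 0.93. Ly6d had 10.69 ± 0.33 and 9.03 ± 0.60 in tesaglitazar and fenofibrate liver and 4.25 to 4.93 in the other 10 groups, where saline liver stood above the brain groups by more than its SD. Pdk4 had 11.80 ± 0.96 and 8.33 ± 0.63 in the same 2 groups, and 5.95 to 6.62 elsewhere, where no neighbours in the order differed by more than their SD.

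Acot3 and Pdk4 fell slightly in prefrontal cortex under fenofibrate, the opposite direction to liver. Acot3 ran from 5.39 to 5.70 in saline with a median of 5.50 (n = 10) and from 4.74 to 5.53 under fenofibrate with a median of 5.12 (n = 9). Pdk4 ran from 6.26 to 6.79 with a median of 6.51 in saline and from 6.03 to 6.52 with a median of 6.23 under fenofibrate. Both pairs of groups overlapped. Before background correction and normalization, median intensities in saline and fenofibrate were 114.0 and 113.8 units for Acot3, and 158.2 and 154.9 for Pdk4. Acot3 fell by 0.32 ± 0.08 (SE, adjusted p = 0.0200, limma over 23079 probes) and Pdk4 by 0.27 ± 0.07 (adjusted p = 0.0243). Fabp3 gave -0.03 with a 95% interval of -0.17 to 0.12 (adjusted p = 0.861). So 2 of the 3 members tested were lower, where 3.48% of all probes tested were lower and 2.57% higher, 6.04% in all.

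The calls for Acot3 and Pdk4 in prefrontal cortex depended on the scaling. With median centring of each array instead of quantile normalization, Acot3 gave -0.23 (adjusted p = 0.162) and Pdk4 -0.16 (adjusted p = 0.393), and the number of probes called lower across the tissue went from 802 to 23, against 592 and 600 called higher. Within mice 1 to 20 the differences were -0.22 and -0.22 (adjusted p = 0.302 and 0.231), and within mice 21 to 40 -0.45 and -0.34 (0.10 and 0.148). With only the 2 groups in the fit, the adjusted p was 0.0666 for Acot3 and 0.0797 for Pdk4. Without fenofibrate mouse 19, Pdk4 gave -0.24 (adjusted p = 0.0551). Over all settings tried, the adjusted p ran from 0.00893 to 0.302 for Acot3 and from 0.0102 to 0.393 for Pdk4. The differences ran from -0.45 to -0.06 for Acot3 and from -0.34 to -0.09 for Pdk4. The smallest were those on the authors' processed values, a scale compressed at low signal. Beside these falls, Tmem119, a microglia gene, fell by 0.32 (adjusted p = 0.00668, limma), 1 of 3 tested microglia genes, while 0 of 2 neuron, 0 of 3 astrocyte and 0 of 2 oligodendrocyte genes passed in limma (2, 0 and 2 of them at an unadjusted p under 0.05). The part of cell makeup in the values was not tested.

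No member passed the test under tesaglitazar or bezafibrate in prefrontal cortex, or under any drug in amygdala, and for each of these 5 contrasts 0 of 3 had an unadjusted p under 0.05 in limma. Of all probes tested, 0% passed in each of these, except 0.0130% for bezafibrate in prefrontal cortex. In amygdala the sets of mice taken alone gave other counts. In mice 1 to 20, 1078 probes were higher and 295 lower under fenofibrate, and 614 were higher under bezafibrate, 72.5% of those called. In mice 21 to 40, 15 were higher and 102 lower under fenofibrate, 13 and 62 under bezafibrate, and 248 and 710 under tesaglitazar. For each drug, most calls were thus higher in the first set and lower in the second. The share called higher was 78.5% and 12.8% for fenofibrate, 72.5% and 17.3% for bezafibrate, and 80.0% and 25.9% for tesaglitazar. The cause was not tested. In amygdala under fenofibrate, Acot3 gave -0.13 (95% interval -0.29 to 0.04), Pdk4 -0.19 (-0.40 to 0.01) and Fabp3 0.13 (-0.0026 to 0.26). Under tesaglitazar in prefrontal cortex the differences were -0.01 for Acot3, 0.06 for Pdk4 and 0.10 for Fabp3, with 95% intervals of -0.18 to 0.16, -0.09 to 0.21 and -0.05 to 0.24. The response of the regions to fenofibrate was compared directly by an interaction contrast. The prefrontal cortex response minus the amygdala response was -0.21 ± 0.12 for Acot3 (adjusted p = 0.404, limma), -0.09 ± 0.12 for Pdk4 (0.766) and -0.16 ± 0.10 for Fabp3 (0.438), so that 0 of 3 passed where 0.408% of probes did (1 probe with a block for mouse number and 0 with median centring), and 0 of 3 had an unadjusted p under 0.05. In the fit with a block for mouse number, Acot3 gave -0.23 at an unadjusted p of 0.0441 (adjusted 0.394, limma). With median centring the value for Pdk4 was 0.07. A difference between the regions was not shown.

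**Figure D5:**
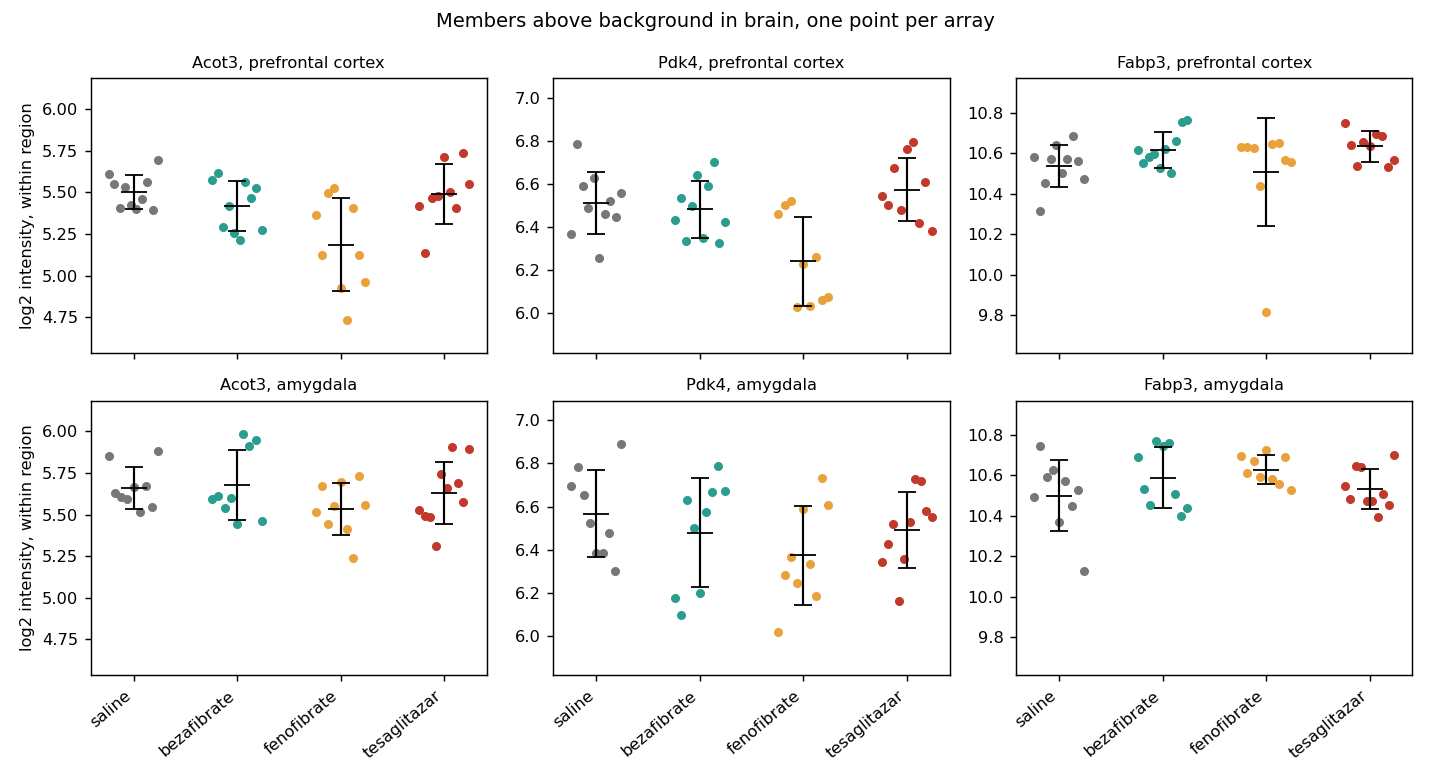
Log2 intensity of Acot3, Pdk4 and Fabp3 in prefrontal cortex (upper row) and amygdala (lower row), normalized within the region (vertical axes, which do not start at 0), by treatment. Points are arrays and bars mean ± SD; in prefrontal cortex the fenofibrate points of Acot3 reach down to 4.74 and those of Pdk4 to 6.03, and overlap saline.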

How the data were processed

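RNA of 3 mouse tissues was measured on Illumina bead arrays. A deposited table gives an intensity for each of 45281 probes and array and a detection p-value beside it, per the file headers. The values are linear and differ in distribution between arrays, so they were taken as raw, and the p-value as a comparison with the array's negative controls. The authors' deposited processed table holds values on a log-like scale that tracks log2 of the raw intensity at high signal (median slope 1.03) and is compressed at low signal (median slope 0.553). Its array medians are 7.07 (liver), 7.29 (prefrontal cortex) and 7.37 (amygdala), and its base and centring are not given in the sources used here. The submitters' processing notes name lumi, with no version. Columns were matched to samples by title, and 8 array columns matched no sample and were not used. Probes were named from the platform annotation (34885 with 1 gene, 18 with several and 10378 with none), and chromosome positions from RefSeq, GRCm38.p6.

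The rest was computed here with R 4.3.3, limma 3.58.1 and Python 3.11.15. The background of each array was estimated from its detection p-values by the neqc method, with an offset of 16, before quantile normalization within the tissue and log2 transformation. Folds of dim probes are understated by the offset. Probes above background on at least 9 arrays of a tissue were tested by lmFit and eBayes over the 4 treatments, two-sided, with Benjamini-Hochberg adjustment over all probes tested, and an adjusted p under 0.05 was called. The fits were tested on simulated data. P-values measure the spread between the arrays of a group, each taken as 1 mouse from its number. Where a gene has several tested probes, the probe with the highest mean level stands for it.

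The members, the lists and the 2 libraries left out were chosen with earlier results of these data known. Genes named are the 5 members, the 3 probes most like each, and genes of the lists of PPAR targets, receptors and cell type markers. The other settings were no background correction, median centring, quantile normalization over all tissues, no detection filter, a detection p under 0.01, trend and robust settings, mice 1 to 20 against 21 to 40 or the mouse number as a block, the authors' values, both doubtful libraries kept, each of these sets of mice alone, only the 2 groups compared, and, added after the data were seen, leaving out each array in prefrontal cortex.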

Additional observations from a re-analysis of the deposited data

Results flagged for a closer look

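Of 60 groups of a member in a tissue and treatment, 4 had a single array far from the others by Dixon's test, where chance alone gives about 1 in 20, or 3. Fabp3 in fenofibrate liver of mouse 37 lay at a log2 level of 10.13, against 6.89 to 8.25 on the other 8 arrays. Fabp3 in prefrontal cortex of fenofibrate mouse 20 lay at 9.81, against 10.44 to 10.65. Fabp3 in bezafibrate liver of mouse 12, at 4.37 against 4.14 to 4.23, and Ly6d in amygdala of bezafibrate mouse 34, at 4.66 against 4.19 to 4.34, were both below the detection threshold.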

How the results depend on the processing

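The liver differences of the members kept their size within the spread between mice in 70 values under other settings and moved beyond it in 32. None changed sign where both the value and the main value were larger than 2 SE. Smaller values did change sign, as for Ly6d under bezafibrate with both doubtful libraries kept. Without background correction, the fenofibrate difference was 4.14 for Cyp2b9, 4.42 for Acot3, 1.78 for Fabp3 and 2.21 for Ly6d, and the tesaglitazar difference 4.74, 4.95, 5.24 and 3.91, with 4.68 for Pdk4. With the authors' processed values, the fenofibrate differences were 3.52, 4.15, 1.33, 1.72 and 0.86 for Cyp2b9, Acot3, Fabp3, Ly6d and Pdk4, the tesaglitazar differences 4.12, 4.68, 4.61, 3.31 and 4.25, and bezafibrate gave 1.24 for Acot3. With quantile normalization over the 3 tissues, Acot3 gave 4.44 and 4.89 for fenofibrate and tesaglitazar. With both doubtful libraries kept, fenofibrate gave 2.76 for Fabp3 and 3.40 for Ly6d, tesaglitazar 5.33, 4.40, 5.81, 4.64 and 4.54 for the 5 members, and bezafibrate -0.80 for Fabp3 and -0.50 for Ly6d. In mice 21 to 40, fenofibrate gave 4.45 for Ly6d, and Fabp3 did not pass the filter there. At a detection p under 0.01, Cyp2b9 was detected on 1 saline array and Ly6d on 0 saline and 0 bezafibrate arrays, and with both libraries kept Fabp3 was detected on 1 saline array. In brain, 9 results no longer passed and 1 newly passed. For fenofibrate in prefrontal cortex, Acot3 and Pdk4 no longer passed with median centring (-0.23 and -0.16), with only the 2 groups in the fit (-0.32 and -0.27), in mice 1 to 20 (-0.22 and -0.22) and in mice 21 to 40 (-0.45 and -0.34). Leaving out each array in turn gave -0.36 to -0.26 for Acot3, -0.31 to -0.24 for Pdk4 and -0.05 to 0.06 for Fabp3. In mice 1 to 20 alone, Pdk4 in amygdala passed as lower under fenofibrate, at -0.44 (adjusted p = 0.0320, limma), where 1078 of all probes were higher and 295 lower, against 0 called in all mice. Median centring moved the split of liver calls from 2901 higher and 3037 lower to 3611 and 1231 for fenofibrate, from 4447 and 4699 to 4914 and 2903 for tesaglitazar, and the share of bezafibrate calls that were higher from 48.0% to 64.94%, and the median of all prefrontal cortex probes under tesaglitazar by 0.11. Of the pairs of members, 0 passed without the 2 farthest arrays in the fenofibrate group and 0 in the tesaglitazar group. The cause of these changes was not tested. Fitted with a replicate block for mouse number, the difference between the regions under fenofibrate was -0.23 for Acot3, -0.17 for Fabp3 and -0.09 for Pdk4 (adjusted p = 0.394, 0.541 and 0.836, limma), and no call changed. Deviations of prefrontal cortex and amygdala arrays of the same number had a median r of 0.0729 over 35 pairs, with 15 over 0.1. Pairs of other numbers in the same treatment had a median of 0.000762 over 316 pairs, with 86 over 0.1. Arrays of the same number were somewhat more alike, and these values do not settle whether the numbers pair them. The main fit left them unpaired, and the fit with the block is the paired one. Dim members, those near background in saline, are limited by the signal over background.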

Other observations

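Brain arrays with the same mouse numbers as the 2 liver libraries that went against their labels gave these values. Saline number 4 had log2 levels of 5.53 for Acot3, 6.49 for Pdk4 and 10.57 for Fabp3 in prefrontal cortex, and 5.60, 6.65 and 10.59 in amygdala. Tesaglitazar number 6 had 5.53, 6.34 and 10.55 in amygdala. Each value lay within the range of the other arrays of its own group. Each also lay within the range of the other of these groups, saline or tesaglitazar, in the same region. These values therefore cannot tell whether the brain labels are right. The labels do not say whether equal numbers mark 1 mouse.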
